A study of Homo sapiens with 12 samples.

Results

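The RNA of 769-P cells, an established human clear cell renal carcinoma line, was sequenced after an siRNA (small interfering RNA) against hnRNPA2B1 and compared with the controls labelled sihnRNPA2B1-NC. The 6 libraries are those of the hnRNPA2B1 experiment, 3 with the siRNA and 3 labelled NC, of 12 in the series. Of 60617 gene IDs, 30089 had at least 1 count in these 6 libraries and 15710 passed the filter on low counts and were tested, while 14379 fell below it and are not described. The other 6 libraries come from the same line, labelled siDRAIC and siDRAIC-NC after the long non-coding RNA DRAIC, and are used here only for a test of the difference between the experiments.

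All groups were grown in RPMI1640 medium with serum, and no group carries another treatment or genotype in the labels. What NC stands for, the siRNA sequences and the time after transfection do not stand in the labels. Nor do they say whether libraries 1 to 3 of a group came from separate cultures, so the p-values reflect the variation among these libraries alone, possibly technical. A single cell line and a single siRNA label limit what the comparison can stand for, since the effects of losing hnRNPA2B1 and of this siRNA on other targets cannot be told apart.

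hnRNPA2B1 is an abundant nuclear RNA-binding protein, made as the isoforms A2 and B1 by alternative splicing of 1 gene. It takes part in pre-mRNA splicing, in the transport and stability of mRNA and in the sorting of microRNAs into extracellular vesicles, and it is known as a reader of N6-methyladenosine (m6A), including on primary microRNA transcripts. HNRNPA1 and HNRNPA3 encode its closest relatives, and proteins of this family are known to regulate their own and each other's transcripts. Clear cell renal carcinoma arises from the kidney tubule and is known for loss of VHL, which leaves hypoxia-inducible factors active in the presence of oxygen.

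Library totals ran from 30798303 to 39367842 counts, so 3 counts equal 0.0762 to 0.0974 CPM, the unit of counts relative to the total of a library. Levels below are CPM, given for the 3 libraries of each group or as NC to siRNA means ± SD (n = 3). Changes are log2 fold changes of siRNA over NC, some with ± their approximate SE, and adjusted p-values are from edgeR unless another tool is named. The share of counts on mitochondrial mRNA was 6.36 ± 0.125% with the siRNA and 5.17 ± 0.0608% in the NC libraries, and 23246 ± 155.2 against 22537 ± 528.6 genes had a count. Renal epithelial and clear cell markers were present in every library: PAX8 stood at 448.7 ± 15.1 CPM with the siRNA, VIM at 923.4 CPM and KRT8 at 351.8 CPM, while NDUFA4L2 was below the filter and CA9 and LRP2 had no count in any of the 6 libraries. Markers of other cell types were scarce: 0 of 8 endothelial, 2 of 11 blood and immune, 2 of 8 fibroblast, 3 of 6 hepatocyte and 5 of 7 neuronal markers passed the filter. Summed levels with the siRNA and in the NC libraries were 0.0587 to 0.178 against 0.279 to 0.417 CPM for the endothelial list, 1.88 to 2.52 against 2.79 to 3.39 for the blood list and 3.61 to 4.32 against 2.53 to 3.78 for the fibroblast list. The hepatocyte list summed to 29.6 to 32.7 against 53.3 to 57.1 CPM, nearly all of it SERPINA1, and the neuronal list to 39.0 to 44.2 against 40.4 to 44.4 CPM, mostly NEFL. CD3E, HBA1 and HBB of the blood list, CDH5, TEK and EMCN of the endothelial list, THY1 of the fibroblast list, TTR of the hepatocyte list and STMN2 of the neuronal list were at 0 counts throughout. The part of such cells in any result was not tested.

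HNRNPA2B1 RNA was lower in each siRNA library than in each NC library. The gene (ENSG00000122566, chromosome 7, 26173057 to 26201529, minus strand, GRCh38, overlapping exons of CBX3) measured 291.0, 307.1 and 273.7 CPM with the siRNA and 427.9, 395.7 and 435.1 in NC, lower by a fitted factor of 1.48 (log2 -0.56 ± 0.05, adjusted p = 2.16e-09). Its neighbour CBX3, which shares exon sequence with it in the annotation, went from 154.2 ± 13.7 to 174.5 ± 6.11 CPM and did not pass (adjusted p = 0.0528). The transcripts of both near relatives rose: HNRNPA3 from 181.5 ± 3.27 to 285.6 ± 15.9 CPM (log2 0.62 ± 0.05, adjusted p = 3.1e-10). HNRNPA1 rose from 709.6 ± 19.1 to 951.4 ± 31.3 CPM (log2 0.39 ± 0.05, adjusted p = 2.33e-07). HNRNPA3 measured 300.8, 286.9 and 269.1 CPM with the siRNA and 182.8, 177.7 and 183.9 in NC. Its groups did not overlap, as in 42.0% of all tested genes. HNRNPA0 (0.05) and HNRNPAB (-0.04), further members of the family, were not called. HNRNPA1, HNRNPA3 and HNRNPA2B1 have many near-identical pseudogenes, so reads could be split between copies in ways the counts do not show.

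Across all genes the response was wide and shallow. Of 15710 tested genes, 4781 passed at an edgeR adjusted p below 0.05, which is 30.4%, with 2366 higher (15.1%) and 2415 lower (15.4%). The fold was under 1.5 in 77.5% of the called genes, and their median fold was 1.27. Larger changes leaned upward: 306 rose and 143 fell at least 2-fold, and 40 rose and 16 fell more than 4-fold. The 3 libraries of one group lay outside the range of the other in 6604 genes (42.0%), and 6297 genes had an unadjusted p below 0.05. The 6604 included 4462 of the 4781 called genes, so a lack of overlap adds little to a call. The count of calls rests on the small spread within these 2 groups. The common biological coefficient of variation was 0.0642 here and 0.242 in the siDRAIC experiment. When all 12 libraries shared 1 estimate of the spread (0.182), 186 genes were called up and 97 down, and all 279 calls shared with the first fit had the same direction.

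**Figure D1:**
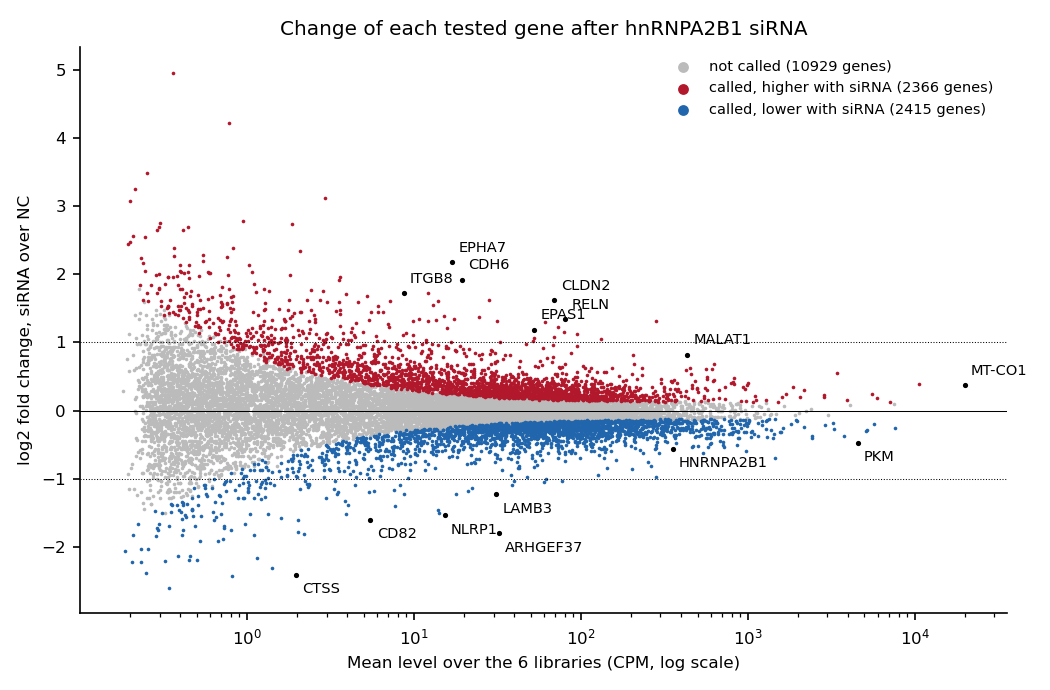
Change of each of the 15710 tested genes, as log2 fold change of siRNA over NC (vertical axis) against the mean CPM of the 6 libraries (horizontal axis, log scale). Red and blue points are the 2366 genes called higher and the 2415 called lower, dotted lines mark a 2-fold change, and most called genes lie between those lines.

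Of 236 named genes with a test, 180 lost their call in the 12-library fit, so a change named below held there only for 56, among them HNRNPA2B1, the 16 risers named next, MARCHF4, ARHGEF37, NLRP1, ITPRIP, TBC1D2, LTBP2, SLC16A3, CD82, ITGB2 and KRT15 among the fallers, and HNRNPA3, MT-ND5, MT-ND6, MIR22HG, NDRG1, CDH4, FBN1, PLAU, ITGB8, UHRF1, BIRC5, GADD45B, TGFBI, ID1, LTBP1, CTSS, CD74, H2AC6, EPHB2, ABCC2, AKR1B10, NPC2, SLIT3, JAG1, SERPINA1 and ANXA4. No named gene reversed its direction in any alternative run for it. For single genes, the alternatives here and below leave out the test against a 2-fold change, which is given at the end.

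The 16 genes that rose with the smallest p-values included CLDN2, CDH6, EPHA7, RELN and SERPINE2. MT-TP, EPAS1 and CA12 also belong to the 16 and are described further below. The 16 risers and the 16 fallers below were chosen among genes changed at least 2-fold whose groups did not overlap. Their lack of overlap is therefore part of the rule, and 42.0% of all tested genes had it. CLDN2 (ENSG00000165376, chromosome X, 106900164 to 106930861, plus strand, overlapping RIPPLY1) encodes claudin-2, which forms cation-permeable pores in the tight junctions of the proximal tubule, and measured 120.2, 103.8 and 92.5 CPM with the siRNA and 32.3, 35.7 and 32.3 in NC. CDH6, a cadherin of the developing kidney tubule, measured 34.8, 29.9 and 28.0 CPM with the siRNA and 8.83, 7.75 and 7.39 in NC, a 3.78-fold rise (log2 1.92 ± 0.10, adjusted p = 1.22e-14). As the rule requires, the lowest siRNA library of each lay above the highest NC library. EPHA7 (ENSG00000135333, chromosome 6, 93240020 to 93419547, minus strand), a receptor for ephrin-A ligands, had the largest rise of the 16 named genes: it measured 33.5, 27.4 and 22.4 CPM with the siRNA and 5.91, 6.07 and 5.89 in NC, a factor of 4.54 (log2 2.18 ± 0.12, adjusted p = 2.58e-14). RELN, the secreted glycoprotein reelin, measured 129.3, 115.3 and 102.9 CPM with the siRNA and 45.6, 45.3 and 43.1 in NC (log2 1.34 ± 0.07, adjusted p = 1.22e-14). SERPINE2, a secreted inhibitor of thrombin and plasminogen activators, went from 58.2 ± 4.79 to 130.9 ± 7.81 CPM (log2 1.13 ± 0.07, adjusted p = 1.1e-13). The groups were apart in each of these genes by the rule of choice. In CPM, the spread among siRNA libraries was wider than among NC libraries for all of them.

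Other risers act in signalling, transport and metabolism. ARRDC3 (ENSG00000113369, chromosome 5, 91368724 to 91383359, minus strand, overlapping ARRDC3-AS1), an alpha-arrestin that takes part in receptor trafficking, measured 184.2, 179.2 and 176.7 CPM with the siRNA and 83.2, 84.6 and 86.7 in NC (log2 1.05 ± 0.05, adjusted p = 1.18e-14). VAV3, a guanine nucleotide exchange factor, measured 49.2, 41.3 and 37.6 CPM with the siRNA and 14.9, 12.6 and 12.9 in NC (log2 1.63 ± 0.09, adjusted p = 7.44e-14). FGFR3, a fibroblast growth factor receptor, measured 36.3, 36.1 and 33.8 CPM with the siRNA and 13.6, 14.2 and 12.1 in NC (log2 1.38 ± 0.09, adjusted p = 4.71e-13). GUCY1B1, the haem-binding subunit of soluble guanylate cyclase, went from 5.55 ± 0.651 to 18.8 ± 2.56 CPM (log2 1.73 ± 0.12, adjusted p = 3e-12). AKR1C3, an aldo-keto reductase of steroid metabolism with near-identical relatives, went from 48.7 ± 2.95 to 111.0 ± 5.02 CPM (log2 1.16 ± 0.06, adjusted p = 4.56e-14). SLC17A1, a phosphate and urate transporter of the proximal tubule, went from 34.5 ± 2.15 to 87.0 ± 10.0 CPM (log2 1.30 ± 0.08, adjusted p = 1.1e-13). In each of these 6 genes the lowest siRNA library was above the highest NC library, as the rule requires. ITGB3, the beta subunit of the vitronectin receptor, rose from 33.7 ± 1.49 to 69.9 ± 1.02 CPM (log2 1.02 ± 0.07, adjusted p = 1.28e-12). IGFBP3, a binding protein of insulin-like growth factors, rose from 17.8 ± 0.746 to 45.2 ± 2.26 CPM (log2 1.31 ± 0.08, adjusted p = 1.1e-13).

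The genes that fell with the smallest p-values were led by ARHGEF37. This gene (ENSG00000183111, chromosome 5, 149551947 to 149634968, plus strand), of the guanine nucleotide exchange factors, measured 14.4, 14.5 and 15.3 CPM with the siRNA and 51.9, 48.1 and 50.6 in NC, lower by a fitted factor of 3.49 (log2 -1.80 ± 0.08, adjusted p = 1.95e-16). LAMB3, a chain of laminin-332 in epithelial basement membranes, measured 18.6, 18.1 and 20 CPM with the siRNA and 43.2, 42.9 and 43.6 in NC (log2 -1.23 ± 0.08, adjusted p = 3.56e-13). NLRP1 (ENSG00000091592, chromosome 17, 5499427 to 5619424, minus strand), an inflammasome sensor, measured 7.46, 8.18 and 8.39 CPM with the siRNA and 21.3, 22.2 and 24.3 in NC (log2 -1.53 ± 0.10, adjusted p = 1e-12). All 3 genes had NC libraries close to one another and, by the rule of choice, siRNA libraries below them. CD82, a tetraspanin, went from 8.22 ± 0.363 to 2.77 ± 0.215 CPM (log2 -1.60 ± 0.14, adjusted p = 1.15e-09), and ITGB2, the beta subunit of leukocyte integrins (overlapping ITGB2-AS1), from 11.2 ± 1.29 to 4.31 ± 0.707 CPM (log2 -1.40 ± 0.14, adjusted p = 4.69e-09). CSF2, the cytokine GM-CSF, measured 7.57, 6.63 and 8.37 CPM with the siRNA and 22.1, 21.3 and 17.3 in NC (log2 -1.46 ± 0.11, adjusted p = 5.38e-11). TNFRSF9, the receptor 4-1BB, measured 13.6, 12.5 and 13.6 CPM with the siRNA and 29, 29.8 and 29 in NC (log2 -1.18 ± 0.08, adjusted p = 9.68e-12). The groups of CSF2 and TNFRSF9 were apart by the same rule, and both genes lost their call in the 12-library fit (adjusted p = 0.299 for CSF2 and 0.259 for TNFRSF9).

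The remaining fallers named by the rule were of mixed function. MARCHF4, a membrane-bound ubiquitin ligase, measured 37.2, 39.7 and 42.2 CPM with the siRNA and 78.3, 84.2 and 79.3 in NC (log2 -1.05 ± 0.07, adjusted p = 8.2e-13). SLC16A3, the lactate exporter MCT4 (overlapping CSNK1D), measured 34.6, 46.8 and 43.2 CPM with the siRNA and 85.2, 84.5 and 75.4 in NC (log2 -1.01 ± 0.08, adjusted p = 1.23e-10). LTBP2, an extracellular matrix protein related to fibrillins, went from 30.3 ± 0.490 to 14.1 ± 0.125 CPM (log2 -1.13 ± 0.08, adjusted p = 1.13e-11). ALOXE3, an epidermal lipoxygenase, went from 20.7 ± 2.41 to 7.45 ± 1.05 CPM (log2 -1.50 ± 0.11, adjusted p = 2.39e-11). ITPRIP, a protein that interacts with the inositol trisphosphate receptor, fell from 53.1 to 26.7 CPM, TBC1D2, a GTPase-activating protein for Rab GTPases, from 52.4 to 25.2 CPM, and KRT15, a basal keratin, from 12.1 to 5.33 CPM. SPOCD1 fell from 25 to 10.9 CPM and the non-coding RNA CASC19, which overlaps PRNCR1, from 103.1 to 51.4 CPM. Adjusted p-values in the 12-library fit were 0.175 for LAMB3, 0.144 for CASC19, 0.104 for ALOXE3 and 0.226 for SPOCD1.

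**Figure D2:**
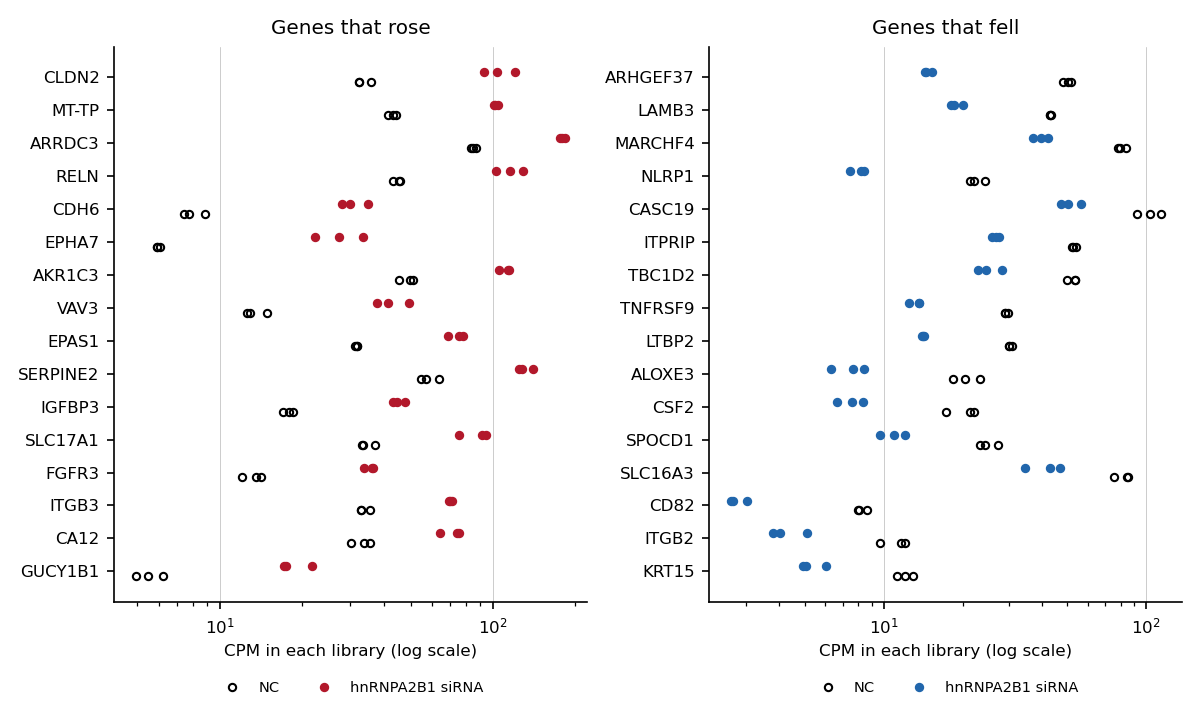
CPM in each of the 6 libraries (horizontal axes, log scale) for the 16 rising and 16 falling genes with the smallest p among called genes changed at least 2-fold, without overlap of the groups and at a mean of at least 2 CPM. Open circles are NC libraries and filled circles siRNA libraries; the 2 kinds do not overlap in any of these genes, which is part of the rule that chose them.

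By absolute level, 7 of the 8 largest gains were in mitochondrial transcripts, and the largest losses were in PKM and FLNA. MT-CO1, a subunit of cytochrome c oxidase, rose from 17109 ± 230.3 to 22649 ± 463.8 CPM, and the 16S ribosomal RNA MT-RNR2 from 9042 ± 507.7 to 12146 ± 498.6 CPM. PKM, which encodes pyruvate kinase and whose paired exons are a known splicing target of hnRNPA1, hnRNPA2B1 and PTBP1, fell from 5239 ± 297.8 to 3878 ± 129.9 CPM (log2 -0.47 ± 0.05, adjusted p = 2.14e-08). The counts are per gene and do not separate the M1 and M2 isoforms of PKM. FLNA, the actin crosslinker filamin A, fell from 8241 ± 294.1 to 7037 ± 87.6 CPM (log2 -0.26, adjusted p = 4.41e-05). ACTG1, cytoplasmic gamma-actin, fell from 5648 ± 226.8 to 4774 ± 132.4 CPM (log2 -0.28, adjusted p = 3.76e-05). MYH9, a non-muscle myosin heavy chain, fell from 4181 ± 59.5 to 3311 ± 55.7 CPM (log2 -0.37, adjusted p = 2.01e-07). AHNAK, a very large scaffold protein, fell from 5540 to 4606 CPM, PLEC, the cytolinker plectin, from 2739 to 2115 CPM, and ITGA3, the alpha-3 integrin subunit, from 6037 to 5365 CPM. ITGB1, the partner subunit of ITGA3, rose from 1912 to 2406 CPM (log2 0.30, adjusted p = 3.92e-05).

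Lists of genes by function were drawn up with earlier results of these data known, so their counts describe this experiment and are read beside the shares of all tested genes (15.1% up, 15.4% down, median log2 fold change 0.01). In the 12-library fit, 83 of the 98 counts of rising or falling members fell by more than 1.5 times, so the counts below hold for the spread of these 6 libraries. In the splicing lists, 4 of 29 hnRNP genes rose and 9 fell, with a median of 0.01; the list leaves out HNRNPA2B1 itself. PTBP1, the polypyrimidine tract-binding splicing repressor, fell from 729.0 ± 33.0 to 595.8 ± 10.2 CPM (log2 -0.32, adjusted p = 1.28e-05). HNRNPM fell from 333.3 to 278.6 CPM (log2 -0.29, adjusted p = 3.51e-05). HNRNPD, the mRNA decay factor AUF1, fell from 217.2 to 187.1 CPM (log2 -0.25, adjusted p = 0.000994). The falling count was 5 without NC replicate 1, siRNA replicate 1 or siRNA replicate 2. HNRNPC, also a reader of m6A-dependent RNA structure, went from 1054 to 981.2 CPM (log2 -0.14, adjusted p = 0.0268), and its call was lost without each of the same 3 libraries and in 4 other alternatives (adjusted p of 0.0928 to 0.144 without the libraries; 0.00481 to 0.476 over all alternatives). Core spliceosome genes leaned down, with 1 of 30 higher (0 without NC replicate 1 or siRNA replicate 1, 2 without NC replicate 3) and 11 lower (median -0.07): SNRPB, a common protein of the spliceosomal snRNPs, fell from 241.9 ± 12.9 to 194.2 ± 14.8 CPM (log2 -0.35, adjusted p = 4.4e-05). EFTUD2, a GTPase of the U5 particle, fell from 341.1 to 287.3 CPM (log2 -0.28, adjusted p = 7.42e-05). The members SNRPF (-0.40), SNRPG (-0.39) and SNRPC (-0.25) fell as well. Among 21 SR proteins and their regulators, 5 rose (2 without NC replicate 1 or siRNA replicate 2, 3 without siRNA replicate 1) and 3 fell (1 without siRNA replicate 1, 2 or 3), with SRSF5 (0.30), SRSF11 (0.20), SRSF6 (0.21) and TRA2A (0.19) higher and SRRM1 (-0.26) lower. SRSF6 and TRA2A lost their calls without NC replicate 1 (adjusted p = 0.0523 and 0.0635) or siRNA replicate 2 (0.0618 and 0.0856), and TRA2A also without siRNA replicate 1 (0.0566); over all alternatives the values ran from 0.000348 to 0.461 for SRSF6 and from 0.00313 to 0.496 for TRA2A.

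Most genes of the m6A pathway were not called. METTL3 and METTL14, the methyltransferase pair, stood at 26.5 to 29.2 CPM and 23.4 to 23.5 CPM in NC and siRNA libraries (adjusted p = 0.33 and 0.855), and the demethylase ALKBH5 at 85.7 to 79.2 CPM (adjusted p = 0.0802). Of 27 writers, erasers and readers, a list without HNRNPA2B1, 3 rose and 3 fell (1 fell without NC replicate 1, siRNA replicate 1 or siRNA replicate 2, and 6 without NC replicate 3). The demethylase FTO rose from 24.9 ± 0.925 to 31.7 ± 1.81 CPM (log2 0.32 ± 0.08, adjusted p = 0.00225). FXR1 rose from 78.6 to 96.5 CPM (log2 0.26, adjusted p = 0.00144). The reader IGF2BP3 rose from 65.5 to 79.4 CPM (log2 0.25, adjusted p = 0.00507). The call of IGF2BP3 was lost without siRNA replicate 1 (adjusted p = 0.0518; 0.000577 to 0.459 over all alternatives). The nuclear reader YTHDC1 fell from 107.9 ± 9.57 to 91.9 ± 0.646 CPM (log2 -0.26 ± 0.06, adjusted p = 0.0012). In the microRNA list, 4 of 27 genes rose and 6 fell (2 rose without NC replicate 3, siRNA replicate 1 or siRNA replicate 3). DROSHA, the nuclease that cuts primary microRNAs, rose from 67.8 ± 0.594 to 83.7 ± 2.15 CPM (log2 0.27, adjusted p = 0.000681). AGO1, an Argonaute protein, rose from 19.9 to 26.2 CPM (log2 0.36, adjusted p = 0.00106). Among host transcripts of microRNAs, MIR22HG measured 2.88, 2.44 and 3.27 CPM with the siRNA and 7.05, 5.16 and 5.87 in NC (log2 -1.10 ± 0.17, adjusted p = 8.75e-06), and MIRLET7BHG fell from 7.98 to 5.17 CPM (log2 -0.66, adjusted p = 0.000296). Both overlap other annotated genes, and mature microRNAs were not measured.

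In the insulin-like growth factor axis, the binding protein gene IGFBP3 rose most. IGF1R, the receptor named in the title of the series, measured 28.9, 25 and 29.4 CPM with the siRNA and 21, 23.7 and 23.2 in NC (log2 0.26 ± 0.08, adjusted p = 0.0188), and its call was lost without NC replicate 1 (adjusted p = 0.126) and in 3 other alternatives (0.00926 to 0.382 over all of them). Of 16 tested members, 4 rose and 2 fell (2 rose without NC replicate 1 or siRNA replicate 1). IGFBP6, which prefers IGF-II, rose from 28.8 ± 4.24 to 36.9 ± 0.0898 CPM (log2 0.32, adjusted p = 0.00517), while IGF2R, the clearance receptor for IGF-II, fell from 652.2 ± 10.1 to 578.8 ± 16.2 CPM (log2 -0.21, adjusted p = 0.00155). STC2, the stanniocalcin that inhibits the protease PAPP-A, fell from 162.9 ± 6.52 to 138.4 ± 5.75 CPM (log2 -0.27, adjusted p = 0.000377). DRAIC, the RNA targeted in the other experiment, was counted 7, 3 and 7 times in the NC libraries and 8, 6 and 2 times in the siRNA libraries. Its ratio of 0.892 had an exact 95% interval of 0.422 to 1.88, which covers counting error only and not the variation among libraries, and no difference was detectable at this depth. In the PI3K, AKT and mTOR list, 2 of 27 rose and 9 fell (1 rose without NC replicate 2 or siRNA replicate 1 or 2, 4 without NC replicate 3), among them RHEB, the activator of mTORC1 (171.4 to 145.3 CPM, log2 -0.27, adjusted p = 0.000252), the mTOR partner MLST8 (-0.36), PIK3CD (-0.35) and RPTOR (-0.19). RPS6KB1, the S6 kinase, rose from 44.2 to 54.1 CPM (log2 0.26, adjusted p = 0.00333).

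Genes of the hypoxia list rose more often than all tested genes did, with 11 of 26 higher (42.3%) and 4 lower (median 0.20). EPAS1, which encodes HIF-2alpha, measured 77.6, 68.4 and 75.1 CPM with the siRNA and 31.4, 31.8 and 31.8 in NC (log2 1.19 ± 0.07, adjusted p = 7.65e-14). CA12, a carbonic anhydrase of its target set, measured 73.7, 75.1 and 64.3 CPM with the siRNA and 35.6, 30.3 and 33.7 in NC (log2 1.07 ± 0.07, adjusted p = 2.92e-12). The NC libraries of EPAS1 lay within a narrow range. EPAS1 and CA12 are among the 16 leading risers, so the gap between their groups is part of the rule that chose them. NDRG1 rose from 477.4 ± 30.4 to 780.1 ± 25.4 CPM (log2 0.68 ± 0.05, adjusted p = 8.9e-11). VEGFA, the angiogenic growth factor, rose from 484.8 ± 21.5 to 625.3 ± 6.08 CPM (log2 0.33 ± 0.05, adjusted p = 7.84e-06). CCND1, the G1 cyclin that is a HIF target in renal carcinoma, fell from 824.5 ± 10.4 to 591.8 ± 16.9 CPM (log2 -0.51 ± 0.05, adjusted p = 2.3e-09). HIF1A itself was at 19.7 to 19.1 CPM and not called. Glycolysis genes were mixed, with 4 of 20 higher and 6 lower (median -0.03): ENO1, enolase 1, fell from 2723 ± 89.9 to 2152 ± 101.1 CPM (log2 -0.37, adjusted p = 8.97e-07), as did PKM and SLC16A3 above, while SLC16A1, the transporter MCT1, rose from 57.1 to 73.9 CPM (log2 0.34, adjusted p = 0.000133). PFKL, liver phosphofructokinase, rose from 96.0 to 122.8 CPM (log2 0.32, adjusted p = 0.00031). The kidney list had 5 of 17 higher and 2 lower (1 without siRNA replicate 2), with CDH16, the kidney-specific cadherin, up from 12.5 ± 1.19 to 23.6 ± 0.593 CPM (log2 0.88 ± 0.09, adjusted p = 2.3e-08). HNF4G, a transcription factor of the tubule, rose to 1.31 times its level, SLC3A1, part of a cystine transporter, rose from 0.418 to 1.18 CPM, and PAX8 fell from 500.3 to 448.7 CPM (log2 -0.19, adjusted p = 0.00344). Of 10 tested clear cell and renal epithelial markers, 3 rose (EPAS1, CA12 and the annexin gene ANXA4, 88.1 to 128.9 CPM) and 3 fell (KRT18, CD70 and PAX8).

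Junction, matrix and adhesion genes changed in both directions. Besides CLDN2 and CDH6, CLDN4, a barrier-forming claudin, fell from 550.9 ± 25.5 to 392.1 ± 25.5 CPM (log2 -0.52 ± 0.06, adjusted p = 2.3e-08). CDH4 fell from 14.9 ± 0.655 to 8.37 ± 0.421 CPM (log2 -0.87 ± 0.10, adjusted p = 2.06e-07). Of 21 junction genes, 3 rose and 4 fell. CDH2, N-cadherin, fell from 312.5 to 279.1 CPM (log2 -0.20, adjusted p = 0.00286). Of 24 integrins and adaptors, 6 rose and 8 fell: ITGB8, which binds latent TGF-beta with ITGAV, measured 15.3, 13.4 and 11.7 CPM with the siRNA and 3.28, 4.24 and 4.31 in NC (log2 1.72 ± 0.13, adjusted p = 4.92e-11), and ITGB4, the laminin-332 receptor subunit, rose from 6.93 to 13.5 CPM (log2 0.93, adjusted p = 1.66e-07). The adaptor TLN1, talin, fell from 1169 ± 54.9 to 912.2 ± 20.6 CPM (log2 -0.39, adjusted p = 5.24e-07; overlapping CREB3). In the matrix list 8 of 28 rose and 6 fell. FN1, fibronectin, rose from 848.4 ± 24.0 to 1156 ± 18.6 CPM (log2 0.41, adjusted p = 5.57e-08). COL7A1, the anchoring fibril collagen, rose from 439.5 ± 8.52 to 687.6 ± 10.8 CPM (log2 0.61, adjusted p = 7.65e-11). FBN1, fibrillin 1, rose from 2.59 ± 0.143 to 6.42 ± 0.114 CPM (log2 1.28, adjusted p = 2.16e-07). LAMB3 fell, while LAMA3, another chain of laminin-332, rose slightly (0.16, adjusted p = 0.033).

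The urokinase gene and that of its receptor fell. PLAU, the urokinase plasminogen activator, went from 159.7 ± 12.9 to 110.2 ± 5.69 CPM (log2 -0.57 ± 0.06, adjusted p = 4.65e-08). Its receptor PLAUR went from 54.1 ± 0.278 to 30.9 ± 4.20 CPM (log2 -0.84 ± 0.08, adjusted p = 2.71e-09). PLAUR measured 27.1, 30.3 and 35.4 CPM with the siRNA and 54.3, 54.2 and 53.8 in NC. Its groups were apart, as in most called genes. In all, 4 of 20 proteases and inhibitors rose and 8 fell (2 rose without NC replicate 1, siRNA replicate 1 or siRNA replicate 2), with ADAMTS1 (-0.43) and the inhibitor TIMP2 (-0.36) among the lower and SERPINE2 the strongest riser. In the epithelial-mesenchymal list 2 of 15 rose and 3 fell (5 fell without NC replicate 3): ZEB1, a repressor of epithelial genes, rose from 30 ± 3.86 to 39.1 ± 3.58 CPM (log2 0.35, adjusted p = 0.00159), and the keratins KRT18 (128.7 to 104.2 CPM, overlapping KRT8) and KRT7 (37.0 to 28.2 CPM) fell. VIM and SNAI2 were not called (0.04 and -0.02).

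**Figure D3:**
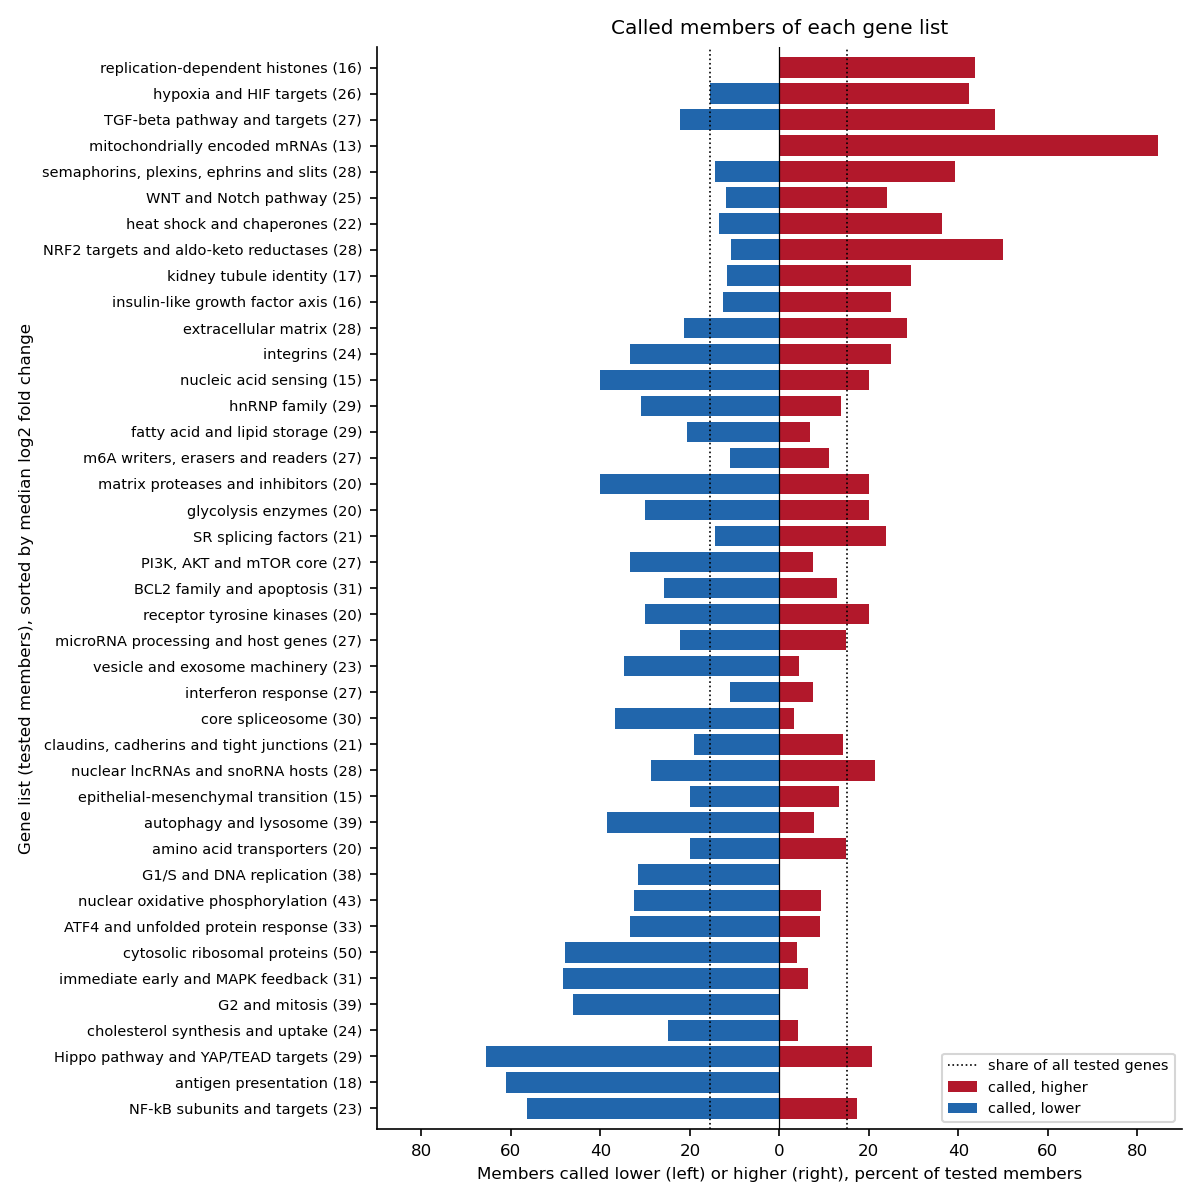
Share of tested members called higher (red, to the right) or lower (blue, to the left) in the gene lists, in percent, sorted by the list's median log2 fold change, with tested members in parentheses. Dotted lines give the shares of all tested genes, 15.1% higher and 15.4% lower; mitochondrial mRNAs stand at 84.6% higher and the YAP/TEAD list at 65.5% lower.

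Many genes of proliferation fell, and no tested member of either cell cycle list was called higher. In the G2 and mitosis list 18 of 39 fell (46.2%, median -0.17) and 31 had estimates below 0. AURKB, the kinase of the chromosomal passenger complex, measured 70.8, 70.2 and 69.3 CPM with the siRNA and 102.6, 112.4 and 99.7 in NC (log2 -0.62 ± 0.06, adjusted p = 7.65e-09), and its partner BIRC5, survivin, 89.5, 97.3 and 104.4 CPM with the siRNA and 144.6, 148.9 and 135.8 in NC (log2 -0.59 ± 0.06, adjusted p = 1.85e-08). The groups did not overlap in either gene, as in most called genes. FOXM1, a transcription factor of the G2/M genes, fell from 101.7 ± 5.83 to 78.7 ± 4.73 CPM (log2 -0.40, adjusted p = 1.13e-05). KIF2C, a microtubule depolymerase, fell from 119.8 ± 2.19 to 89.1 ± 1.70 CPM (log2 -0.46, adjusted p = 2.54e-07). CDC20, an activator of the anaphase-promoting complex, fell from 168.5 ± 9.59 to 135.2 ± 2.65 CPM (log2 -0.35, adjusted p = 1.97e-05). In the G1/S and replication list 12 of 38 fell (31.6%, median -0.09), with CCND1 and its kinase CDK4 (232.5 to 185.8 CPM, log2 -0.36, adjusted p = 2.61e-05), UHRF1, which maintains DNA methylation (54.8 to 37.3 CPM, log2 -0.59, adjusted p = 1.08e-07), and the helicase subunit MCM2 (-0.49). Leaving out NC replicate 3 gave 1 rising member in each of the 2 lists, and leaving out siRNA replicate 3 gave 2 in the G2 list.

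Promoters of the G2/M genes often carry the cell cycle genes homology region (CHR), known as a binding element of the DREAM and MuvB complexes. The letters TTTGAA, read on both strands, were found in the promoter window of 20 of 32 tested G2 and mitosis genes with a RefSeq promoter (62.5%), in 8 of the 12 fallers among them (66.7%), in 9.77% of 10964 tested genes with a promoter and in 15.4% of all 27305 promoters in the table. A window is 300 bases, from 250 before to 50 after the RefSeq start (GRCh38.p14). Called risers and fallers as a whole held these letters in 8.44% and 8.77%. The surroundings of the letters (capitals) in 4 falling members are shown because the letters were frequent in this list. They lie at chr1:43358773-43358838, plus strand for CDC20, chr16:2429332-2429397, plus strand for CCNF, chr16:23678830-23678895, plus strand for PLK1 and chrX:70290040-70290105, plus strand for KIF4A.
CDC20: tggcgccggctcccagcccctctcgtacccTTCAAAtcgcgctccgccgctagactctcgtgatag
CCNF: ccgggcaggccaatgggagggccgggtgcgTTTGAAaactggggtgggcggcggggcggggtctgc
PLK1: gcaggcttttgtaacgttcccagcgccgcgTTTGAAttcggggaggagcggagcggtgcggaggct
KIF4A: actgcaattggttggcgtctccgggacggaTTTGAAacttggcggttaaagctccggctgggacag
In CDC20 the letters are on the opposite strand and so read TTCAAA. The capitals begin 178, 85, 29 and 34 bases before the start of CDC20, CCNF, PLK1 and KIF4A. The log2 fold changes of these 4 genes were -0.35, -0.25, -0.23 and -0.25; CCNF, PLK1 and KIF4A were named for their sequence after their values were seen.

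Genes of the NF-kB and antigen presentation lists fell more often than tested genes at large. In the NF-kB list 4 of 23 rose and 13 fell (56.5%, median -0.32). NFKB2, the p100 subunit, fell from 365.3 ± 21.7 to 273.4 ± 4.47 CPM (log2 -0.45 ± 0.05, adjusted p = 1.75e-07). TRAF1 fell from 43.3 ± 3.39 to 24.1 ± 0.501 CPM (log2 -0.88 ± 0.08, adjusted p = 6.53e-10). The cytokine LIF fell from 586.3 ± 27.8 to 417.2 ± 14.5 CPM (log2 -0.52 ± 0.05, adjusted p = 8.74e-09). The inhibitor NFKBIE fell from 49.1 to 33.7 CPM and the ubiquitin ligase BIRC3 from 96.3 to 71.4 CPM. TRAF1 measured 23.5, 24.2 and 24.5 CPM with the siRNA and 43.3, 46.6 and 39.9 in NC. Its groups did not overlap, as in most called genes.

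None of 18 tested antigen presentation genes was called higher and 11 fell (61.1%, median -0.31; 1 rose without NC replicate 1). The class I genes HLA-B (207.9 ± 5.16 to 157.3 ± 8.73 CPM, log2 -0.44, adjusted p = 6.13e-07) and HLA-C (414.9 ± 26.3 to 331.7 ± 13 CPM, log2 -0.36, adjusted p = 1.25e-05) fell, with the reservation that HLA genes share reads. PSMB9, an immunoproteasome subunit, fell from 8.99 to 5.14 CPM (log2 -0.84, adjusted p = 1.88e-05). CTSS, the cathepsin that trims the invariant chain, measured 0.998, 0.457 and 0.468 CPM with the siRNA and 3.12, 3.35 and 3.39 in NC (log2 -2.41 ± 0.27, adjusted p = 5.85e-08). CD74, the invariant chain, measured 0.235, 0.508 and 0.520 CPM with the siRNA and 1.40, 1.40 and 2.86 in NC (log2 -2.17 ± 0.36, adjusted p = 2.73e-05). Both are rare in these cells, and their groups did not overlap, as in 4462 of the 4781 called genes. Among 15 nucleic acid sensing genes 3 rose and 6 fell (0 rose without siRNA replicate 1, and 1 without NC replicate 1 or siRNA replicate 2 or 3). Besides NLRP1, the kinase gene IKBKE fell from 53.8 ± 1.88 to 31.4 ± 1.29 CPM (log2 -0.81 ± 0.07, adjusted p = 3.4e-10). IRF3 fell from 56.6 to 43.3 CPM (log2 -0.42, adjusted p = 9.8e-06). The DNA sensor CGAS fell from 40 to 30.2 CPM (log2 -0.44, adjusted p = 2.79e-05). NLRC5, an activator of class I genes, fell from 7.61 to 4.89 CPM (log2 -0.67, adjusted p = 0.000563). The interferon list had smaller shares called than tested genes at large, with 2 of 27 higher (7.41%) and 3 lower (11.1%). Without NC replicate 1 or 2 or siRNA replicate 1, 1 rose. ISG15 (7.01 to 4.05 CPM), OAS3 (27.6 to 20.8 CPM) and IFI35 (20.6 to 16.6 CPM) fell. IFIT5 (higher, 15.8 to 19.6 CPM) lost its call in DESeq2 (adjusted p = 0.0523) and without NC replicate 1 or 2 or siRNA replicate 1 (0.062, 0.167 and 0.135; 0.00397 to 0.437 over all alternatives), and IFI35 without NC replicate 1 or siRNA replicate 1 (0.0526 and 0.0879; 0.00037 to 0.352).

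In the Hippo pathway and YAP/TEAD list 19 of 29 fell (65.5%) and 6 rose (median -0.20), with IGFBP3 the strongest riser. AMOTL2, an angiomotin that restrains YAP, fell from 698.7 ± 30.2 to 511.4 ± 14.3 CPM (log2 -0.48 ± 0.05, adjusted p = 2.22e-08). AXL, a receptor kinase, fell from 1208 ± 64.7 to 971.3 ± 24.4 CPM (log2 -0.35 ± 0.05, adjusted p = 5.02e-06). GADD45B fell from 200.3 ± 2.99 to 123.1 ± 14.7 CPM (log2 -0.73 ± 0.07, adjusted p = 8.68e-10). ASAP1 (251.1 to 198.7 CPM) and NUAK2 (403.3 to 318.2 CPM) fell as well, and YAP1 was not called (-0.04, adjusted p = 0.62). The letters GGAATG of a TEAD site, on both strands, were in 7 of 23 promoters of tested members (30.4%) in 10.8% of tested promoters and in 14.0% of all in the table. Of 31 immediate early and MAPK feedback genes, 15 fell (48.4%) and 2 rose (5 without NC replicate 2), with a median of -0.16. FOSL1, the AP-1 subunit FRA-1, measured 750.1, 826.6 and 805.9 CPM with the siRNA and 1170, 1205 and 1117 in NC (log2 -0.59 ± 0.05, adjusted p = 6.53e-10). The phosphatase gene DUSP1 fell from 697.8 ± 40.1 to 565.3 ± 41.2 CPM (log2 -0.34, adjusted p = 4.04e-05). The ephrin receptor EPHA2 fell from 668.5 ± 36.1 to 520.1 ± 11.8 CPM (log2 -0.40, adjusted p = 9.84e-07). KLF6 fell from 672.6 to 529.5 CPM (log2 -0.38, adjusted p = 4.83e-07). MAFF fell from 111.5 to 85.3 CPM (log2 -0.42, adjusted p = 5.78e-06).

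The AP-1 letters TGANTCA, on both strands, were more frequent in promoters of the strongest fallers than in those of tested genes. The TATA box and CHR letters were more frequent there as well, the CCAAT box letters about as frequent and the TEAD letters less frequent. They were found in 12 of 72 genes that fell at least 2-fold and had a promoter (16.7%), in 6.57% of all fallers, in 3.81% of all risers, in 5.61% of those that rose at least 2-fold, in 4.68% of all tested genes and in 7.76% of all promoters in the table. The TATA box letters TATAAA, on both strands, were in 19.4% of the 2-fold fallers, 13.8% of the 2-fold risers, 5.76% of tested genes and 3264 of all 27305 promoters. The CHR letters TTTGAA were in 15.3%, 9.69% and 9.77% of the same gene sets and 15.4% of all promoters. For the CCAAT box letters CCAAT, also searched, these shares were 37.5%, 39.3%, 36.7% and 35.7%. For the TEAD letters GGAATG they were 8.33%, 10.2%, 10.8% and 14.0%. AP-1 dimers of FOS and JUN proteins are known to bind such sites. The promoters of the 2-fold fallers also had fewer G and C bases (median 57.5% against 65.3% over tested genes) and fewer CG pairs (9 against 26), and the part of this composition in the frequency was not tested. Surroundings of the letters in 4 of the 12 genes are shown, chosen as immune genes after their values were seen. They are at chr1:7940847-7940913, minus strand for TNFRSF9, chr12:56338777-56338843, plus strand for IL23A, chr19:4229375-4229441, plus strand for EBI3 and chr9:128149371-128149437, plus strand for LCN2.
TNFRSF9: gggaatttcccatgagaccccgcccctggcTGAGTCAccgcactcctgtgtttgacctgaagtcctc
IL23A: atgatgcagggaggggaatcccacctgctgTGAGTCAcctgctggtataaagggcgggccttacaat
EBI3: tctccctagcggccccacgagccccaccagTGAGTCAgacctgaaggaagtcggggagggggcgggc
LCN2: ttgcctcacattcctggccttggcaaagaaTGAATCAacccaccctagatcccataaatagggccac
The capitals begin 44, 77, 118 and 52 bases before the RefSeq start of TNFRSF9, IL23A, EBI3 and LCN2. IL23A, a subunit of interleukin-23, fell from 1.37 to 0.675 CPM (log2 -1.05, adjusted p = 0.0108). EBI3, a subunit of interleukin-27 and interleukin-35, fell from 2.99 to 1.47 CPM (log2 -1.04, adjusted p = 0.000505). LCN2, lipocalin-2, fell from 1.07 to 0.283 CPM (log2 -1.92, adjusted p = 0.000563). These 3 transcripts were rare, below 2 CPM with the siRNA.

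Genes of the TGF-beta pathway were called higher in 13 of 27 cases and lower in 6 (median 0.20). TGFBI, a matrix protein induced by TGF-beta, measured 92.4, 87.3 and 94.0 CPM with the siRNA and 47.5, 50.1 and 39.8 in NC (log2 0.96 ± 0.07, adjusted p = 3.74e-11). ID1, a target of bone morphogenetic proteins, measured 67.4, 64.1 and 57.6 CPM with the siRNA and 34.0, 32.7 and 27.5 in NC (log2 0.97 ± 0.08, adjusted p = 1.14e-10). LTBP1, which holds latent TGF-beta in the matrix, rose from 2.95 ± 0.599 to 8.17 ± 0.776 CPM (log2 1.45 ± 0.15, adjusted p = 2.43e-08). LTBP3 rose from 318.2 ± 24.7 to 434.1 ± 8.03 CPM (log2 0.41, adjusted p = 1.56e-06), opposite to LTBP2. Guidance genes leaned up as well, with 11 of 28 semaphorins, plexins, ephrins, slits and netrins higher and 4 lower (median 0.17). SLIT3 rose from 12.2 ± 1.07 to 23.1 ± 3.38 CPM (log2 0.89 ± 0.10, adjusted p = 8.19e-08). NTN4, netrin-4, rose from 178.7 ± 2.41 to 254.2 ± 5.36 CPM (log2 0.47 ± 0.05, adjusted p = 2.92e-08). PLXND1 rose from 20.1 to 31.1 CPM and SEMA3B from 3.70 to 8.14 CPM, and SEMA3C fell from 426.9 to 345.5 CPM. In the WNT and Notch list 6 of 25 rose and 3 fell (5 fell without NC replicate 3): the Notch ligands JAG1 (118.8 ± 2.95 to 187.2 ± 14.7 CPM, log2 0.62, adjusted p = 2.22e-09) and JAG2 (12.8 to 20.6 CPM, log2 0.66, adjusted p = 1.54e-05) rose with DKK3 (156.7 to 218.6 CPM), and NOTCH2 (638.9 to 515.1 CPM, log2 -0.34, adjusted p = 3.42e-06) and the target HES1 (21.7 to 17.6 CPM) fell. Of 20 receptor tyrosine kinases 4 rose and 6 fell, with ROR1 down from 68.9 ± 6.42 to 40.3 ± 2.60 CPM (log2 -0.80 ± 0.07, adjusted p = 5.46e-10). EPHB2 fell from 236.6 ± 9.56 to 177.0 ± 10.0 CPM (log2 -0.45, adjusted p = 4.12e-07), against FGFR3 and EPHA7 above.

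Transcripts of the mitochondrial genome leaned up while nuclear genes of the same respiratory complexes leaned down. Of 13 mitochondrial mRNAs, 11 were called higher and none lower (median 0.18; 7 higher without NC replicate 1), and all 13 estimates were above 0. MT-ND5 measured 4237, 4022 and 4103 CPM with the siRNA and 2620, 2761 and 2894 in NC (log2 0.55 ± 0.05, adjusted p = 3.31e-10). MT-ND6, the mRNA of the light strand, measured 776.4, 726.5 and 741.3 CPM with the siRNA and 444.8, 498.6 and 489.2 in NC (log2 0.61 ± 0.05, adjusted p = 3.7e-10). The tRNA MT-TP, read from the light strand next to the control region, measured 104.9, 102.1 and 100.8 CPM with the siRNA and 43.2, 41.3 and 44.3 in NC (log2 1.22 ± 0.06, adjusted p = 4.95e-15). The groups did not overlap in MT-ND5 and MT-ND6, as in 4462 of all 4781 called genes. For MT-TP, 1 of the 16 leading risers, the lack of overlap is part of the rule that chose it. MT-CO2 rose from 5016 to 6086 CPM, MT-CO3 from 5535 to 6410 CPM, MT-ND2 from 2618 to 3141 CPM and MT-ND4 from 6691 to 7515 CPM; the call of MT-ND4 was lost without NC replicate 1 (adjusted p = 0.119) or siRNA replicate 1 (0.1; 0.00109 to 0.519 over all alternatives). Over the whole mitochondrial chromosome 14 of 17 tested genes were higher. Of 43 nuclear oxidative phosphorylation genes, 4 rose (1 without NC replicate 1 or 2 or siRNA replicate 1 or 2, 2 without siRNA replicate 3) and 14 fell (9 without siRNA replicate 1), with a median of -0.11. The falling share, 32.6%, was near the 31.9% of tested genes of highest level (above 72.5 CPM). CYC1, cytochrome c1, fell from 339.8 ± 22.8 to 270.3 ± 3.5 CPM (log2 -0.36, adjusted p = 8.42e-06). COX5A fell from 114.1 to 92.4 CPM (log2 -0.34, adjusted p = 5.15e-05). ATP5MC1 fell from 51.7 to 39.2 CPM (log2 -0.43, adjusted p = 3.83e-05). ATP5F1D fell from 69.8 to 54.4 CPM (log2 -0.40, adjusted p = 0.000254), and NDUFV2 rose from 3.24 to 6.32 CPM (log2 0.93, adjusted p = 4.13e-05; overlapping AP005263.1). Mitochondrial genes have nuclear copies, so their counts are uncertain to that extent.

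Ribosomal protein genes fell by small amounts: 24 of 50 (48.0%) were lower and 2 higher, with a median of -0.13. The largest change by p was in RPS15, from 329.7 ± 15.2 to 266.8 ± 12.9 CPM (log2 -0.34 ± 0.05, adjusted p = 2.15e-05), followed by RPS12 (-0.32), RPL35 (-0.28), RPS16 (-0.27) and RPLP1 (-0.33). The falling count was 15 without siRNA replicate 1, the rising count was 0 without NC replicate 1 or siRNA replicate 2 or 3 and 1 without NC replicate 2 or siRNA replicate 1, and these genes have many pseudogenes. Chaperone genes leaned up, with 8 of 22 higher and 3 lower: HSPA8 rose from 292.0 ± 1.67 to 401.3 ± 7.76 CPM (log2 0.43, adjusted p = 1.03e-07). HSP90AA1 rose from 255.9 ± 17 to 345.9 ± 13.4 CPM (log2 0.40, adjusted p = 8.33e-07). DNAJA1 rose from 83.6 to 110.6 CPM and HSPB1 from 133.5 to 171.5 CPM, and HSPB8 fell from 146.4 to 117.3 CPM. In the ATF4 and unfolded protein list 3 of 33 rose and 11 fell (7 fell without NC replicate 1 or siRNA replicate 1, 5 rose without NC replicate 3). HSPA5, the chaperone BiP of the endoplasmic reticulum, rose from 1628 ± 26.2 to 2111 ± 21.6 CPM (log2 0.34 ± 0.04, adjusted p = 7.71e-07), while ATF4 fell from 782.5 ± 9.38 to 657.4 ± 38.2 CPM (log2 -0.28, adjusted p = 8.01e-05). CEBPB fell from 307.4 to 236.9 CPM (log2 -0.41, adjusted p = 7.22e-06). PPP1R15A fell from 879.3 to 715.2 CPM (log2 -0.33, adjusted p = 1.13e-05).

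Aldo-keto reductases and NRF2 targets rose in 14 of 28 cases (50%) and fell in 3 (median 0.11). AKR1B10 measured 3.82, 3.00 and 3.59 CPM with the siRNA and 1.07, 0.915 and 1.31 in NC (log2 1.62 ± 0.22, adjusted p = 1.79e-06). ABCC2, an organic anion exporter of the apical membrane, rose from 157.6 ± 9.86 to 258.7 ± 13.4 CPM (log2 0.68 ± 0.05, adjusted p = 1.04e-10). UGDH, which makes UDP-glucuronate, rose from 56.6 ± 3.22 to 83.8 ± 4.43 CPM (log2 0.53, adjusted p = 1.35e-07). The reductase AKR1B1 fell from 1002 ± 11 to 772.9 ± 33.6 CPM (log2 -0.41 ± 0.05, adjusted p = 1.79e-07). SLC7A11, the cystine importer, rose from 93.9 to 119.0 CPM (log2 0.31, adjusted p = 0.000685; overlapping SLC7A11-AS1). Of 20 amino acid transporters 3 rose and 4 fell (2 fell without NC replicate 1, siRNA replicate 1 or siRNA replicate 2), with SLC3A2 (1155 to 962.3 CPM) and SLC36A1 (23.4 to 16.5 CPM) lower and SLC38A9 (22.0 to 28.9 CPM) higher. Cholesterol genes leaned down, with 1 of 24 higher (2 without NC replicate 3) and 6 lower (median -0.18). MVD fell from 55.6 to 41.4 CPM and FDFT1 from 38.7 to 31.5 CPM. INSIG1, which retains the SREBP processing complex, rose from 88.3 ± 1.44 to 134.7 ± 6.72 CPM (log2 0.58 ± 0.06, adjusted p = 5.22e-09). In the fatty acid list 2 of 29 rose (1 without NC replicate 1 or siRNA replicate 1, 4 without NC replicate 2) and 6 fell. PLIN2, a lipid droplet coat protein, rose from 95.2 to 114.2 CPM, and LPIN2 (50.5 to 39.3 CPM), DGAT2 (6.10 to 4.0 CPM), PLIN3 (148.4 to 128.4 CPM) and MGLL (686.8 to 619.6 CPM) fell, the last without a call when siRNA replicate 1 was left out (adjusted p = 0.0539; 0.000373 to 0.445 over all alternatives).

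Lysosomal and vesicle genes leaned down beside all tested genes, while 31.9% of the tested genes of highest level (above 72.5 CPM) also fell. Of 39 autophagy and lysosome genes 3 rose and 15 fell (38.5%, median -0.09): NPC1, the lysosomal cholesterol transporter, fell from 542.5 ± 3.10 to 422.1 ± 20 CPM (log2 -0.39 ± 0.05, adjusted p = 5.89e-07). Its partner NPC2 fell from 39.4 ± 0.993 to 28.1 ± 2.25 CPM (log2 -0.52 ± 0.08, adjusted p = 4.64e-06). The autophagy receptor SQSTM1 fell from 1583 ± 66.9 to 1272 ± 36.9 CPM (log2 -0.35, adjusted p = 2.93e-06). HEXA fell from 31.4 to 23 CPM, and the transcription factor MITF rose from 51.7 to 65.7 CPM (log2 0.31, adjusted p = 0.000284). Of 23 vesicle and exosome genes 1 rose and 8 fell (34.8%): besides CD82, the tetraspanin CD63 fell from 503.9 ± 14.5 to 428.1 ± 20.7 CPM (log2 -0.27, adjusted p = 0.000203). The syndecan SDC4 fell from 341.2 to 282.3 CPM (log2 -0.31, adjusted p = 7.07e-05). RAB35 fell from 175.1 to 147.2 CPM (log2 -0.28, adjusted p = 0.000341), while RAB27B rose from 2.50 to 4.33 CPM (log2 0.75, adjusted p = 0.00221). Without NC replicate 2 or 3, 2 vesicle genes rose. In the BCL2 and apoptosis list 4 of 31 rose (2 without siRNA replicate 1) and 8 fell, with BMF, a BH3-only protein, up from 3.90 to 8.11 CPM (log2 1.02, adjusted p = 3.67e-06) and BAK1 down from 62.3 to 47.8 CPM (log2 -0.42, adjusted p = 1.17e-05). BAX, the pro-apoptotic BCL2 relative, fell from 233.3 ± 11.8 to 192.4 ± 11.2 CPM (log2 -0.31, adjusted p = 0.000123).

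Histone genes that are switched on in S phase were called higher in 7 of 16 tested cases and lower in none (1 lower without NC replicate 3), with a median of 0.64, while 24 of 41 members fell below the filter. H2AC6 measured 46.0, 41.5 and 45.1 CPM with the siRNA and 22.3, 21.1 and 21.4 in NC (log2 1.00 ± 0.07, adjusted p = 2.2e-11). H2BC5 rose from 3.33 ± 0.696 to 6.59 ± 0.409 CPM (log2 0.96, adjusted p = 2.65e-05). H4C8 rose from 2.60 ± 0.290 to 5.19 ± 0.565 CPM (log2 0.97, adjusted p = 5.51e-05). H1-2 rose from 7.89 to 11.7 CPM and H2AC11 from 1.40 to 2.83 CPM. The mRNA of most such genes ends in a stem-loop without a poly(A) tail, how RNA was selected for the libraries is not stated in the labels, and histone genes are near-identical copies. Among nuclear long non-coding RNAs and snoRNA host genes, 6 of 28 rose and 8 fell. MALAT1, an abundant RNA of nuclear speckles, measured 583.1, 573.9 and 519.1 CPM with the siRNA and 278.9, 284.8 and 366.6 in NC (log2 0.82 ± 0.07, adjusted p = 2.21e-10), and the host transcript SNHG14, which overlaps UBE3A, rose from 77.9 to 112.2 CPM (log2 0.49, adjusted p = 2.44e-07). GAS5, a snoRNA host, fell from 784.0 ± 7.29 to 631.9 ± 43.6 CPM (log2 -0.34, adjusted p = 8.67e-06). SNHG15 fell from 131.5 to 97.3 CPM (log2 -0.47, adjusted p = 1.16e-06).

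Called genes differed from tested genes in level and length. Among the 3142 genes of lowest level (0.180 to 1.12 CPM) 5.98% rose and 3.09% fell, and among the 3142 of highest level (above 72.5 CPM) 17% rose and 31.9% fell. Risers had a median exonic length of 6015 bases and fallers 4554, against 4491 for all tested genes. The share of risers went from 6.52% among the 3114 shortest genes to 23.4% among the 3114 longest, while fallers went from 11.6% to 13.9%, with 17.9% at most. The median span of a riser's gene was 44784 bases and of a faller's 23884. Calls of at least 2-fold were mostly of rare transcripts, with median levels of 0.993 CPM for risers and 0.807 CPM for fallers against 15.1 CPM over tested genes. Long non-coding RNAs were 13% of tested genes, 7.73% of risers and 4.64% of fallers, but 19.3% and 29.4% of those changed at least 2-fold. Level, length and gene class vary together, and the part of each was not tested. No autosome had more than 20.6% of its tested genes called in 1 direction.

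**Figure D4:**
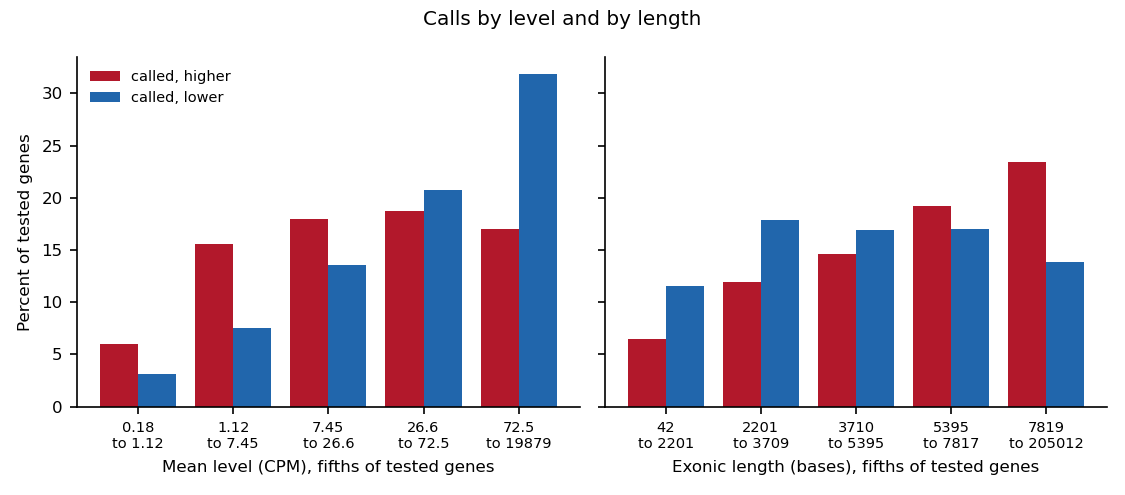
Percent of tested genes called higher (red) or lower (blue), vertical axis, in 5 equal classes of tested genes by mean CPM (left) and by exonic length in bases (right). Fallers reach 31.9% in the most abundant class and risers 23.4% in the longest.

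To see which of the 32 leading changes differed from those in the libraries labelled siDRAIC, the difference between the changes was tested in 1 fit of all 12 libraries. The 2 experiments have separate NC libraries, and starting levels differed in some of these genes. Means in the siDRAIC-NC libraries were 679.6 CPM for CLDN2, 109.4 for CDH6 and 164.7 for CA12, above the NC levels given here. They were 15.6 CPM for ARHGEF37 and 2.23 for NLRP1, below those levels, and 16.1 for IGFBP3, close to its level here. The part of the starting level in the differences was not tested. The changes set side by side are from the fit of each experiment alone, and each difference is from the joint fit. Over all 17091 genes in that fit, 36 differences were called (0.211%), and 8 of the 32 genes were among them. The 32 genes were chosen by their change after hnRNPA2B1 siRNA, which enters the difference, so these 2 shares cannot be compared. With the replicate number of each experiment as a block, 258 were called (1.51%), 16 of the 32 genes among them, the same 8 included. Libraries with the same number in the siDRAIC experiment deviated together (correlations of 0.489, 0.227 and 0.277), which those of the hnRNPA2B1 experiment did not. Without the block, CA12 differed most: it rose by 1.07 here and changed by -1.38 (SE 0.23) in the libraries labelled siDRAIC, a difference of -2.49 (SE 0.26, edgeR adjusted p = 0.000602). EPAS1 rose by 1.19 here against -0.51 there (difference -1.73, adjusted p = 0.0086), and ARHGEF37 changed by -1.80 against -0.21 (difference 1.56, adjusted p = 0.0086). NLRP1 changed by -1.53 against -0.03 (adjusted p = 0.0287), and CDH6 by 1.92 against 0.88 (adjusted p = 0.0258). For VAV3 the values were 1.63 and 0.31 (adjusted p = 0.0374), for GUCY1B1 1.73 and 0.56 (adjusted p = 0.0258) and for MT-TP 1.22 and 0.15 (adjusted p = 0.0282). The other 24 genes did not pass without the block, and 8 of them passed with it: CLDN2, ARRDC3, FGFR3, MARCHF4, CASC19, SLC16A3, ITGB2 and KRT15. Several of the rest were close in both experiments, such as IGFBP3 (1.31 here and 1.36 there, difference -0.00, SE 0.33) and ITGB3 (1.02 and 0.93, difference -0.13, SE 0.17). ARRDC3 differed by -1.01 (SE 0.23, adjusted p = 0.104; 0.0103 with the block). HNRNPA2B1 and IGF1R differed by 0.28 (SE 0.17) and 0.60 (SE 0.19), with adjusted p-values of 0.67 and 0.294.

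**Figure D5:**
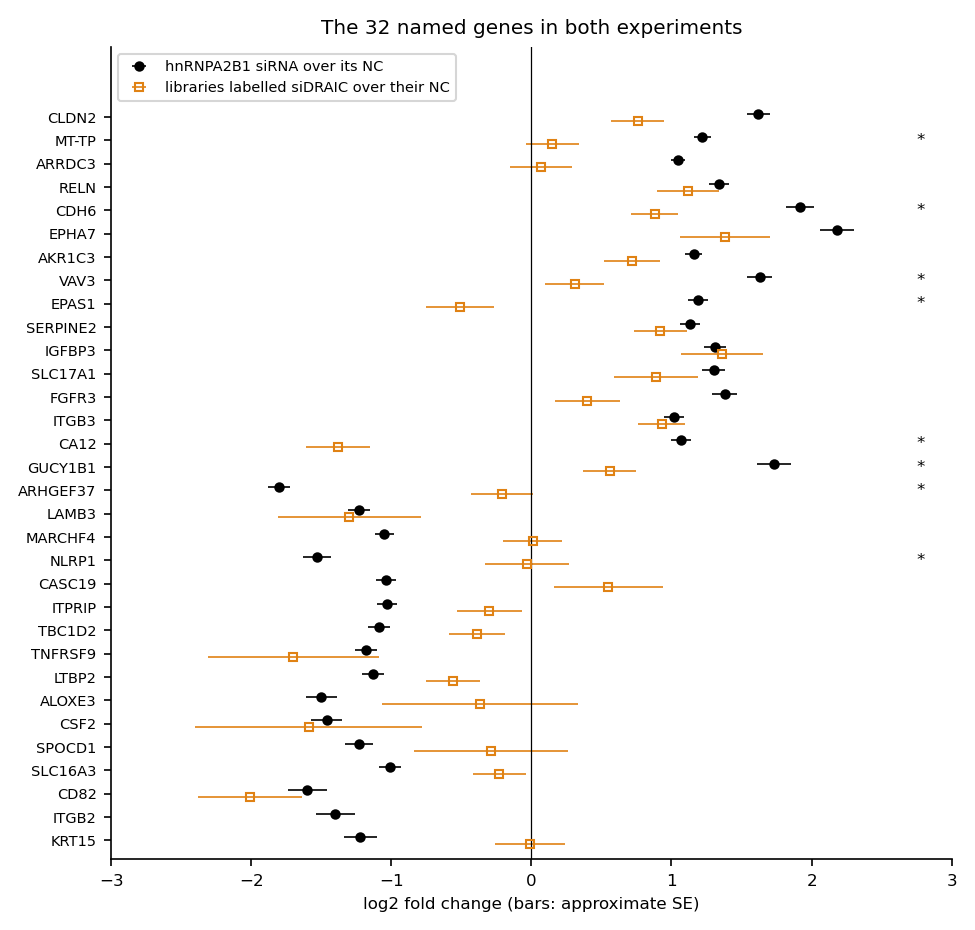
Log2 fold changes of the 32 named genes (horizontal axis, bars are approximate SE) after hnRNPA2B1 siRNA (black) and in the libraries labelled siDRAIC (orange), each over its own NC. Asterisks mark the 8 genes whose difference passed the test without a replicate block, among them CA12 and EPAS1 with opposite estimates; ITGB2 was below the filter in the siDRAIC experiment.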

How the data were processed

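The authors deposited raw counts per Ensembl gene for 12 RNA-seq libraries of 769-P cells, 3 per group. Per the labels' protocols, RNA was isolated with RNAiso Plus and libraries were made with a TruSeq kit. The submitters' processing notes name fastp 0.23.2, STAR 2.7.10a, StringTie, DESeq2 and build hg38, with no version for StringTie and DESeq2. The counter, annotation and strand setting are not named there, so reads of overlapping or antisense genes cannot be told apart, and near-identical copies (histone, ribosomal protein, HLA, aldo-keto reductase and mitochondrial genes) are uncertain. All value columns were mapped to samples by their names and 0 were left unused; 0 rows named no gene.

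Samples were grouped by their labels. Genes were filtered with filterByExpr (minimum count 10), scaled by TMM and tested with edgeR 4.0.16 (quasi-likelihood, robust; R 4.3.3) on the 6 libraries, with Benjamini-Hochberg adjustment over all tested genes and a threshold of 0.05. SE was approximated from the log2 fold change and its F statistic. CPM are counts over the library total. The difference between experiments was an interaction in a fit of all 12 libraries. The code was tested on simulated data. Symbols matched 60261 of 60617 IDs, and GENCODE 29 (GRCh38) held 58542, whose exons gave lengths and overlaps. RefSeq promoters (GRCh38.p14) matched 10964 of 15710 tested genes. Of 1303 symbols in 49 gene lists, 5 had no ID (SOD2, DDX58, H2AC18, CCAT1 and LINC00152).

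The members and lists were chosen with earlier results of these data known. Named genes are HNRNPA2B1, IGF1R and DRAIC; up to 16 risers and 16 fallers with the smallest p among called genes changed at least 2-fold, without overlap of the groups and at 2 CPM or more; the 8 largest rises and falls in CPM; and up to 5 called members of each list by p. Some of these genes and lists are not reported here. Alternatives were RLE factors, DESeq2 1.42.0, limma-voom (limma 3.58.1), no filter, at least 1 CPM in 3 libraries, a replicate block, all 12 libraries in 1 fit, a test against a 2-fold change, each library left out and, chosen after seeing the data, library totals alone.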

Additional observations from a re-analysis of the deposited data

Results flagged for a closer look

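Of the 32 genes with the leading changes after hnRNPA2B1 siRNA, 8 had a change that differed from the change in the libraries labelled siDRAIC by the test of the difference itself (edgeR, joint fit of 12 libraries without a replicate block, adjusted over all genes of that fit). As siDRAIC change minus hnRNPA2B1 siRNA change on the log2 scale, the differences were -2.49 for CA12, -1.73 for EPAS1, -1.35 for VAV3, -1.21 for GUCY1B1, -1.11 for MT-TP and -1.07 for CDH6. ARHGEF37 differed by 1.56 and NLRP1 by 1.46, in the opposite direction. With the replicate number of each experiment as a block, 16 of the 32 genes passed, these 8 included. The 32 genes were chosen by their change after hnRNPA2B1 siRNA, which enters the difference. The NC levels of some of them differed between the experiments, and the part of this in the differences was not tested. The groups hold 3 libraries each, too few for a test of single libraries that stand apart.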

How the results depend on the processing

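The total of 4781 called genes was 283 (186 higher, 97 lower) when all 12 libraries shared 1 estimate of the spread, which is wider there, and 36 (27 higher, 9 lower) when tested against a 2-fold change. Among them the 449 genes changed at least 2-fold became 131 with all 12 libraries and 242 with at least 1 CPM required in 3 libraries, which tests fewer genes. Leaving out 1 library at a time gave 1604 to 2671 higher and 1714 to 2829 lower genes, and 2667 of the calls (55.8%) were made in all 6 of these fits. Normalization, tool, no filter and library totals alone moved neither count by more than 1.5 times. The replicate block gave 2228 higher and 2186 lower genes. Libraries with the same number had correlations of deviations of -0.0117, -0.0242 and -0.0456, so no shared deviation was seen. The labels do not say whether these samples were paired. Calls of differences between the experiments rose from 36 to 258 with the replicate block, and same-numbered libraries correlated in the siDRAIC experiment alone. Leaving aside the test against a 2-fold change, 56 of 236 named genes kept their call in every alternative. In the same alternatives 169 lost it only with all 12 libraries and 11 elsewhere, and none reversed. The differences of IGFBP3 and LAMB3 between experiments, near 0 and not called, changed sign: IGFBP3 was 0.01 with RLE factors, 0.04 at 1 CPM in 3 libraries and 0.03 with the replicate block, and LAMB3 0.04 with the replicate block. Of 98 counts of rising or falling list members, 83 moved by more than 1.5 times with all 12 libraries, 4 with the replicate block, 3 with DESeq2 and 8 to 21 with 1 library left out. HNRNPA2B1 kept its call in all alternatives run for single genes, which leave out the test against a 2-fold change. Depth limits genes near the floor of 3 counts, 0.0762 to 0.0974 CPM.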
